A study of Mus musculus with 4 samples.

Results

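The abundant intergenic long noncoding RNAs (lincRNAs) of the mouse 2-cell embryo are described here. They were chosen as the genes that GENCODE M21 calls lincRNA and that averaged at least 10 CPM, a gene's share of a library's counts scaled to a common total, over the 4 libraries of the study. The Snhg genes, Gas5, Malat1, Neat1, H19, Meg3, Rian, Mirg, Airn, Kcnq1ot1 and Peg13 were set aside by name, which removed 4 genes at that level (Malat1, Snhg6, Snhg10 and Snhg18). The rule left 236 lincRNAs of 5340 lincRNA genes and of 53715 rows in the gene table. A further 3123 lincRNA genes had counts below that level. Because the level chose the members, their levels are given as a description. Both groups entered the mean with equal weight, and near its edge a group can still decide. After the TMM scaling used below, 7 members averaged at least 10 CPM in knockdown alone, among them Gm42418 and A530046M15Rik, and 5 in control alone.

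The embryos were whole 2-cell embryos of the strain labelled C57BL/DBA2. In the knockdown group (2 libraries) zygotes had been injected with an siRNA against SPENH0335, and in the control group (2 libraries) with the control siRNA siNC, both at 20 μM; all were grown in KSOM, an embryo culture medium. Polyadenylated RNA was sequenced from pre-amplified cDNA, and the labels give neither the number of embryos in a library nor whether replicates came from separate collections, so a p-value rests on the spread between libraries that may be technical replicates. The labels pair SPENH0335, named in a series on enhancer-derived RNA, with no gene of the table, so the level of the siRNA's target was not checked here.

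A lincRNA is a long transcript, usually spliced and polyadenylated, that lies between protein-coding genes and has no recognised protein product. Most have no assigned role, and many bear only a gene-model or clone number as a name. In the mouse oocyte and early embryo many such RNAs are known to start in the long terminal repeats of endogenous retroviruses, copies of which are spread over the genome and can give unrelated genes the same first exon.

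Libraries held 94257563 and 99011109 counts in knockdown embryos and 87900405 and 78865491 in control embryos. The abundant lincRNAs took 2.16% and 2.20% of the counts in knockdown libraries and 2.15% and 2.176% in control libraries, and 87.6 to 89.5% of all lincRNA counts. The 9 markers of the 2-cell embryo (among them Zscan4c, Zscan4d and Zfp352) all averaged at least 1 CPM, and their sum was 1177 and 1122 CPM in knockdown libraries and 938 and 1012 CPM in control libraries. Summed levels of the 10 oocyte markers, which include Zp3 and Gdf9, were 3728 and 3930 CPM in knockdown libraries and 4374 and 4245 CPM in control libraries. Neither sum overlapped between groups, but single markers differed. Zscan4d had 183.3 and 177 CPM in knockdown libraries and 141.1 and 138.7 CPM in control libraries. Tcstv3 had 62.76 and 69.4 CPM in knockdown libraries and 70.95 and 70.2 CPM in control libraries. Bmp15 took most of the oocyte sum, with 2087 and 2236 CPM in knockdown libraries and 2417 and 2335 CPM in control libraries. Zp3 had 40.8 and 37.87 CPM against 39.35 and 39.38 CPM. The part of these marker differences in the members' values was not tested. Of the markers of other cells, the 7 of blood, oviduct and stroma summed to 42.38 and 18.37 CPM in knockdown libraries and 40.04 and 62.01 CPM in control libraries, with the globin gene Hbb-bs at 0 in all 4 but Hba-a1 at 24.89 and 10.43 CPM in knockdown libraries and 26.18 and 27.08 CPM in control libraries. The 7 of cumulus and granulosa cells summed to 44.21 and 62.69 CPM in knockdown libraries and 55.8 and 48.36 CPM in control libraries, and the 7 of the later embryo to 62.77 and 59.22 CPM in knockdown libraries and 65.01 and 69.96 CPM in control libraries. Sperm markers summed to at most 5.80 CPM in a library. In whole embryos, fewer cells with an RNA and less RNA per cell cannot be told apart. These marker levels, and levels from here on unless called unscaled, are CPM after TMM scaling of the libraries. Each log2 fold change compares knockdown with control, positive where knockdown is higher.

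The levels spanned a wide range. The most abundant lincRNA, C86187 on chromosome 7, had 2449 and 2552 CPM in knockdown libraries and 2513 and 2503 CPM in control libraries. Gm38025 on chromosome 3 had 1438 and 1860 CPM in knockdown libraries and 1446 and 1488 CPM in control libraries, and AA545190 on chromosome 6 had 1155 and 1090 CPM in knockdown libraries and 1130 and 1092 CPM in control libraries. Together these 3 held 23.8% of the summed level. The first 12 held 48.1% and the first 50 held 74.0%, while the median member averaged 31.6 CPM and 43 members averaged at least 100 CPM. After those 3, in falling order of mean CPM, came A730082K24Rik, Gm1965, Gm17751, Gm839, E330016L19Rik, 4933427D06Rik, Gm3143, Gm37724 and Gm2309. At the lower edge of the rule, on the unscaled CPM it uses, 5730403I07Rik (10.2), 2610037D02Rik (10.2), Gm13211 (10.3) and Gm13715 (10.3) lay just inside, and Gm31816 (9.95), Gm40987 (9.90), Mkln1os (9.81) and Gm47448 (9.75) just outside.

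**Figure D1:**
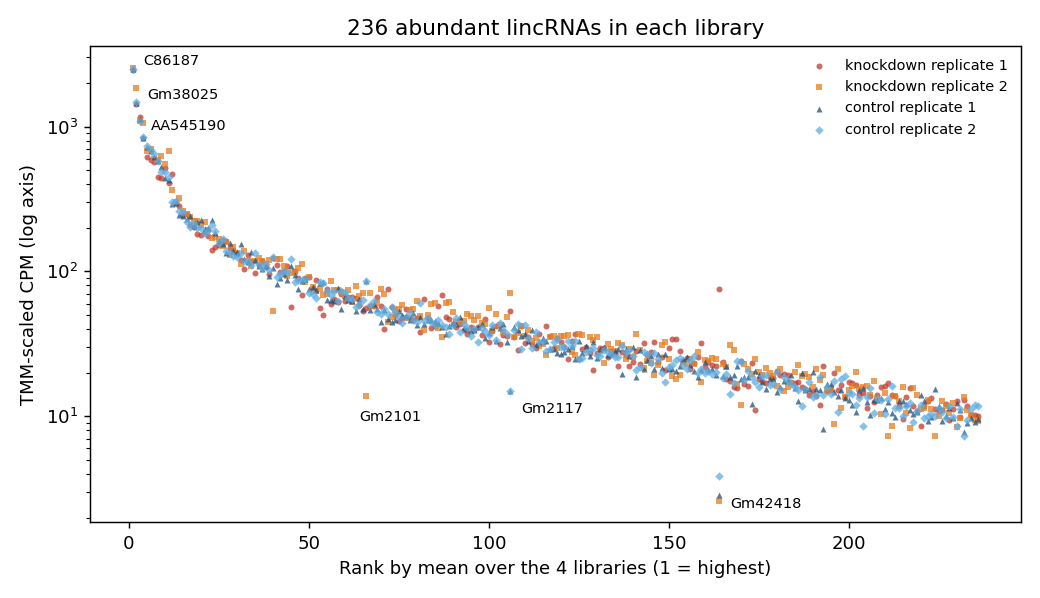
TMM-scaled CPM (log axis) of the 236 abundant lincRNAs in each of the 4 libraries, ordered by their mean. Points of the 4 libraries nearly coincide for C86187, whereas Gm42418 stands at 76.0 CPM in knockdown replicate 1 and at 2.62, 2.88 and 3.90 CPM in the other libraries.

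Per kilobase of exon, the scale on which genes can be compared, C86187 led with a mean of 1037 CPM per kb, followed by AA545190 with 955, Gm38025 with 675, Gm3143 with 520, Gm37724 with 401 and Gm11381 with 378. Gm11381, whose exons span 420 bases, ranked 26 by CPM and entered these 6 through its short length. The median member stood at 24.1 CPM per kb, against 9.64 for the 7451 protein-coding genes averaging 10 CPM or more. The medians of exon length were 1644.5 bases in the lincRNAs and 4859 bases in those coding genes, and since both sets were chosen on CPM and not on CPM per kb, the shorter set stands higher per kb by construction.

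The members lay farther from protein-coding genes than the lincRNAs below the level. The median distance from a member's start to the nearest coding start was 82.8 kb, against 49.4 kb in the 3117 other lincRNA genes with counts. A coding start lay within 10 kb in 19 members (8.05%), against 21.4% of the others, and 5 members (2.12%) started within 1 kb of a coding gene on the other strand, pointing away from it, against 6.26% of the others. Those 5 pairs were F630040K05Rik with 1600014C23Rik, 2010110K18Rik with Cdc25c, 2210406O10Rik with Grpel1, Gm17399 with Cmc1 and Gm15728 with Rfc5. Exons of 8 members (3.39%) overlapped a coding exon on either strand, against 6.38% of the others. On the same strand this held for 3 members (1.27%), against 0.738% of the others, and strand cannot separate those reads. Without a known strand setting, counts of all 8 cannot be told from those of the coding gene. These shares are descriptions of the annotation, with no test.

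The transcripts themselves were longer than those of less abundant lincRNAs, with a median of 1525 bases against 1070. A single exon was annotated for 6 members (2.54%), against 6.90% of the others. The polyadenylation signal AATAAA, searched on the transcript's own strand, stood in the last 40 bases of 113 members (47.9%), against 34.6% of the others. An open reading frame of at least 100 codons was present in 45 members (19.1%) and in 18.5% of the others. The longest, 976 codons, was found in the near-identical transcripts Gm48799, Gm48764 and Gm47486.

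Chromosome X held 14 members (5.93%), although 1.798% of all lincRNA genes lie there, and chromosome Y held 0 of its 549 lincRNA genes. Of the 14 on chromosome X, 11 are near-identical copies of a single family, described below. Chromosome 13 held 27 members, and chromosome 6 held 23, which made up 20.7% of the summed level. A stretch of chromosome 6 (chr6:88950683-89216237, GRCm38) carried 4 of them, 4933427D06Rik, Gm1965, Gm6507 and Gm839, with a summed mean of 1834 CPM. Gm1965 had 616 and 677 CPM in knockdown libraries and 718 and 729 CPM in control libraries. Its neighbour Gm839 had 568 and 600 CPM in knockdown libraries and 617 and 649 CPM in control libraries. In both, each knockdown library lay below each control library, with no call by edgeR (unadjusted p = 0.127 for Gm1965 and 0.232 for Gm839), whereas 4933427D06Rik overlapped between groups with 441 and 627 CPM in knockdown libraries and 529 and 485 CPM in control libraries.

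Many of the abundant lincRNAs begin with a sequence that other lincRNAs share. The first 150 bases of the longest transcript were compared between all 3363 lincRNA genes with counts, counting a match at 60 or more aligned bases with at least 75% identity on the same strand. Of the 236 members, 80 (33.9%) matched the start of another lincRNA, against 332 of 3127 other lincRNA genes (10.6%). Without members that are near-identical to another member over much of their length, 57 of 212 (26.9%) still matched. Matches to the members left out still counted there. Copies were not searched among the other lincRNA genes, so none were removed from them. At least 5 matches were found for 59 members (25%) and for 4.99% of the others. Members linked by such matches formed 8 groups with 66 lincRNAs, the largest with 28 on 11 chromosomes. Links were chained, so the members of a group need not all match each other. The groups were formed from sequence, with no expression value. No repeat annotation was used here, so the origin of the shared starts was not examined.

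A start common in the largest group is shown by the first 110 bases of 6 of its members from 4 chromosomes, picked among those that hold the word marked. They are taken 5′ to 3′ from GENCODE M21 transcripts (GRCm38), each with the position of its first base. Capitals mark a 12-base word that stands in the first 150 bases of 13 of the 28, of 13 members in all (5.51%), and of 10 of the other lincRNA genes (0.320%). The word was picked as the one found in the most starts of this group. A larger share among members is therefore built into the choice and is no measure of enrichment.
Gm38025 (chr3:31341012, plus strand): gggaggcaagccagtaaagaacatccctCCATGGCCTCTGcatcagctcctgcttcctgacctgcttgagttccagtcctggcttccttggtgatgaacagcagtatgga
Gm3143 (chr3:34716662, minus strand): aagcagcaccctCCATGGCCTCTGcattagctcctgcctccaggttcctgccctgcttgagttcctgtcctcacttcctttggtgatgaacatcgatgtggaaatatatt
Gm48704 (chr13:35543902, plus strand): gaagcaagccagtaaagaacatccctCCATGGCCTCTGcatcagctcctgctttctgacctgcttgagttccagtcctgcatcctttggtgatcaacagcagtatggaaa
Gm13180 (chr2:3855030, plus strand): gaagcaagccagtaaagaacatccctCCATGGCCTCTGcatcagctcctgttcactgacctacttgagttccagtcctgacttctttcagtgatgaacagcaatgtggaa
Gm43042 (chr5:59574242, minus strand): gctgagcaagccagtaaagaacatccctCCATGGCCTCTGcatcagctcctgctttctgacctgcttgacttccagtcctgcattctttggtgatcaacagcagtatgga
Gm35191 (chr5:39985628, minus strand): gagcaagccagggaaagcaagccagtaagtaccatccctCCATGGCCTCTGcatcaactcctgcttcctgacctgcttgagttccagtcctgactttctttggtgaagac

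The same word stands near the end of the RefSeq promoter window of Gm3143, which covers 250 bases before to 50 bases after the start (GRCm38.p6, chr3:34716613-34716912, minus strand). The window is printed to show the sequence from which a shared start is transcribed, with the word in lower case and no capitals, since none of the motifs searched was in it. The window of C86187, the most abundant member (chr7:46975862-46976161, minus strand), is given for comparison with a TATAAA box in capitals.
Gm3143 promoter: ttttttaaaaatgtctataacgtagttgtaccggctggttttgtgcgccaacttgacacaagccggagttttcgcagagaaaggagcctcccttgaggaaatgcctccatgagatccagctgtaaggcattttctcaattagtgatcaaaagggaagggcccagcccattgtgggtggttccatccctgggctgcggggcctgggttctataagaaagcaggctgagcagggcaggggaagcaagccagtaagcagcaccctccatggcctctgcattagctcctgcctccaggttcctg
C86187 promoter: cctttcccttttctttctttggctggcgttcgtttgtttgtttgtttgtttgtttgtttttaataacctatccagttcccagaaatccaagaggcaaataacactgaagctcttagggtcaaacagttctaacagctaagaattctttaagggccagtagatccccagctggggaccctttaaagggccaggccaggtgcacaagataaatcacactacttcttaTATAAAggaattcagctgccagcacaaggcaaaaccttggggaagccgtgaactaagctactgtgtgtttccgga

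RefSeq promoter windows starting within 100 bases of a GENCODE start were at hand for 74 members, with 83 windows. Motifs were searched on both strands as spelled. TATAAA, the TATA box, was in 10.8% of these windows and in 13.6% of all 32851 windows in the table, and CCAAT in 41.0% and 37.4%. The word CGCG was in 15.7% of the member windows and in 38.0% of all windows, and the median number of CG dinucleotides was 5 against 7. The word GGATTA, whose reverse complement is TAATCC, was in 4.82% of member windows and 7.06% of all. The motif of the 2-cell factor Dux was in 0 of 83 member windows and in 11 of all windows. Members without a window were not searched.

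The study's comparison asks what the knockdown of SPENH0335 changed in the 2-cell embryo. The summed level of the abundant lincRNAs was 21075 and 23156 CPM in knockdown libraries and 21271 and 21361 CPM in control libraries, that is 22116 ± 1471 CPM in knockdown and 21316 ± 63.6 CPM in control (SD, n = 2 each), with overlapping groups. All 236 passed the filter on low counts. None passed an adjusted p of 0.05 in edgeR's quasi-likelihood test over 25565 genes (0 of 236 members, with 0.0% of all genes called), and the smallest adjusted p among them was 1.00. At an unadjusted p under 0.05, 14 members (5.93%) were higher in knockdown, against 1.56% of all genes tested, and 3 (1.27%) were lower, against 2.29% of all genes. The 14 include Gm42418 and A530046M15Rik, which averaged at least 10 CPM in knockdown alone. Their membership leans on the group where they are high. In 63 members (26.7%) both knockdown libraries lay above both control libraries, against 15.6% of all genes, and in 27 (11.4%) below, against 17.1%. All genes tested include many below 10 CPM, and these shares were not computed at the members' level alone. Of other classes averaging 10 CPM or more, 3 of 73 antisense genes and 2 of 30 genes of the class TEC were higher at an unadjusted p under 0.05 (edgeR). The same held for 0 of 57 processed transcripts and 1 of 165 processed pseudogenes. limma-voom also called none, and DESeq2 called 1 member, Gm2117, higher at an adjusted p of 3.41e-16 (0.0621% of genes called higher and 0.107% lower).

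The median log2 fold change of the 236 was 0.07, with 155 above 0 and 81 below, against −0.0025 over all genes tested and 0.026 over genes averaging 10 CPM or more. It was 0.03 without knockdown replicate 2, 0.11 without knockdown replicate 1, and 0.03 where libraries were scaled by their totals alone. The middle 50% lay between −0.05 and 0.24. Among genes of other classes averaging 10 CPM or more, the median was 0.09 in antisense genes and 0.05 in processed transcripts. It was −0.02 in processed pseudogenes, so a median above 0 was not particular to the lincRNAs. The fold change was smaller than 2-fold in either direction in 233 members, and the 95% interval lay wholly within 2-fold in 205 (86.9%), against 87.8% of all 8183 genes at that level. Among the most abundant, C86187 had a log2 fold change of −0.0041 (95% interval −0.18 to 0.17), AA545190 of 0.01 (−0.19 to 0.22) and Gm38025 of 0.17 (−0.16 to 0.50).

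**Figure D2:**
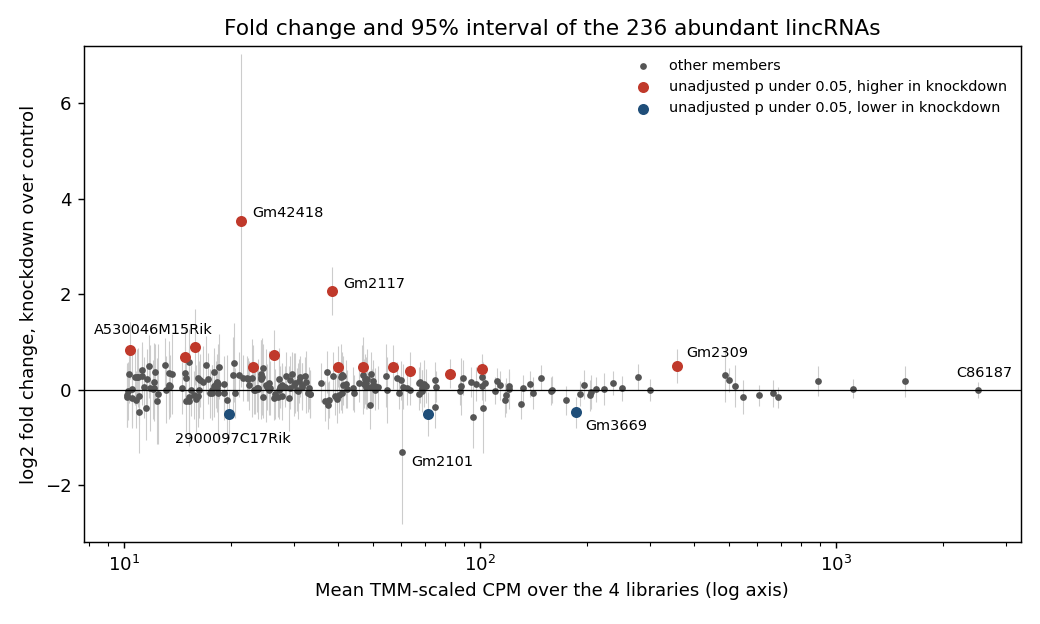
log2 fold change (knockdown over control) of the 236 abundant lincRNAs with 95% intervals from edgeR, against their mean TMM-scaled CPM (log axis). Coloured points have an unadjusted p under 0.05 (14 higher and 3 lower in knockdown); none has an adjusted p under 0.05, and Gm2117 and Gm42418 stand apart at 2.06 and 3.54.

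Among the members with the smallest unadjusted p on the higher side, A530046M15Rik on chromosome 13 had 12.97 and 13.66 CPM in knockdown libraries and 7.74 and 7.32 CPM in control libraries, a log2 fold change of 0.82 (SE 0.24, unadjusted p = 0.0155, edgeR). A530046M15Rik reached the level of the rule in knockdown alone, so its membership is not independent of this difference. Gm48170, also on chromosome 13, had 28.4 and 37.2 CPM in knockdown libraries and 18.69 and 21.04 CPM in control libraries (log2 fold change 0.72, SE 0.21, unadjusted p = 0.0166, edgeR). Gm4224 on chromosome 7 had 16.5 and 20.1 CPM in knockdown libraries and 10.7 and 12.1 CPM in control libraries. In these 3 and in Gm43303 (111 and 122 CPM in knockdown libraries, 81.9 and 91.5 CPM in control libraries) the groups did not overlap. The others of the 14, outside the X-linked copies and Gm42418 treated next, were C87198, Gm42947, Gm10745, Gm29016, Gm3924, Gm48584 and Gm26870, with log2 fold changes of 0.33 to 0.89. No function is known here for any of these.

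On the lower side, 2900097C17Rik is the mouse Norad gene in RefSeq, an abundant cytoplasmic RNA known to bind Pumilio proteins. It had 15.6 and 16.8 CPM in knockdown libraries and 22.3 and 24.2 CPM in control libraries, a log2 fold change of −0.52 (SE 0.19, unadjusted p = 0.0402, adjusted p = 1.00, edgeR), with groups that did not overlap. 9830004L10Rik had 120 and 113 CPM in knockdown libraries and 154 and 134 CPM in control libraries at unadjusted p = 0.0548 (edgeR). The remaining 4 of the 6 lowest p-values on this side, Gm3669, Gm2165, Gm14552 and Gm2101, are copies of the same X-linked transcript.

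That X-linked family is the largest set of near-identical members, with 11 genes in chrX:25917944-35348739. Copies were defined as at least 95% identity over at least 50% of the shorter transcript, and 24 members fell into 5 such sets. The longest annotated transcripts of Gm2117 (chrX:28005050-28047399), Gm2101, Gm2165 and Gm3669 are the same over all 1846 bases, so a read from within them cannot be assigned among the 4 by its sequence. Other annotated transcripts of these genes were not compared. Taken alone, Gm2117 had 53.5 and 70.9 CPM in knockdown libraries and 14.9 and 14.9 CPM in control libraries, a log2 fold change of 2.06 (SE 0.20, unadjusted p = 8.57e-05, adjusted p = 1.00, edgeR). This was the smallest unadjusted p of any member.

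The other 3 copies had lower values in knockdown embryos. Gm2101 had 55.9 and 13.8 CPM in knockdown libraries and 85.9 and 86.5 CPM in control libraries. Gm2165 had 50.01 and 68.32 CPM in knockdown libraries and 84.5 and 83.5 CPM in control libraries, and Gm3669 had 141 and 170 CPM in knockdown libraries and 225 and 208 CPM in control libraries. All 3 lay below both controls in each knockdown library. For Gm2101 the size depended on 1 library: without knockdown replicate 1 its log2 fold change was −2.64 (adjusted p = 0.0169, edgeR), and without knockdown replicate 2 it was −0.62 (adjusted p = 0.607, edgeR). Summed into 1 row, the 4 identical transcripts had 301 and 323 CPM in knockdown libraries and 410 and 393 CPM in control libraries, or 312 ± 15.4 CPM in knockdown and 402 ± 11.96 CPM in control (SD, n = 2 each). The log2 fold change of the sum was −0.37 (SE 0.096, unadjusted p = 0.0104, adjusted p = 1.00 over 25562 rows, edgeR). The direction of Gm2117 alone is therefore opposite to that of the sum of its identical copies. How reads were divided among copies is not stated in the labels.

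**Figure D3:**
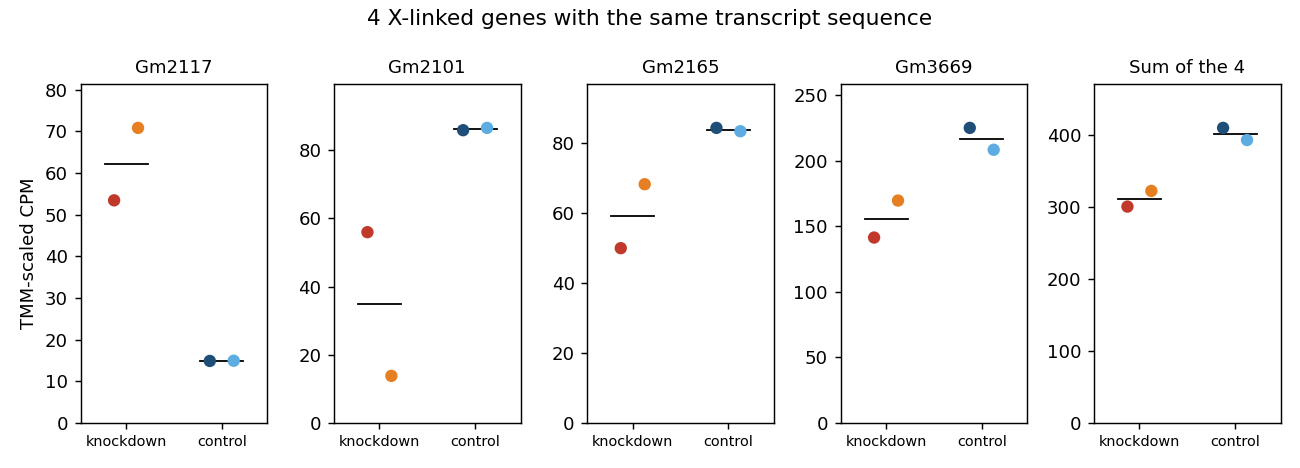
TMM-scaled CPM in each library of 4 X-linked lincRNA genes whose longest transcripts have the same sequence, and of their sum; each panel has its own axis from 0, knockdown replicates (red, orange) stand left of control replicates (dark and light blue), and lines are means of 2 libraries. Gm2117 was higher in knockdown, with 53.5 and 70.9 CPM, while the sum was lower, with 301 and 323 CPM in knockdown and 410 and 393 CPM in control.

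Gm2309, the most abundant of the family after E330016L19Rik, can be told from Gm2117 by sequence. The transcripts differ at 28 of 736 bases in their longest ungapped block, and 120 bases of it are printed with the 8 differing bases in capitals (bases 1308 to 1427 of Gm2117 and 1438 to 1557 of Gm2309, 5′ to 3′, GENCODE M21).
Gm2117: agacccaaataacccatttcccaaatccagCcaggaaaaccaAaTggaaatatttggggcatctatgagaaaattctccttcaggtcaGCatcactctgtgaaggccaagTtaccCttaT
Gm2309: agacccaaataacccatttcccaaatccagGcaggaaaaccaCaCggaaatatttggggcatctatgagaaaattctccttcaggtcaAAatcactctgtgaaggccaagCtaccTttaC

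Gm2309 had 469 and 365 CPM in knockdown libraries and 294 and 300 CPM in control libraries, a log2 fold change of 0.49 (SE 0.14, unadjusted p = 0.0150, edgeR). It is 99.8% identical to E330016L19Rik, which had 449 and 590 CPM in knockdown libraries and 580 and 577 CPM in control libraries. In knockdown replicate 1, where Gm2309 was highest, E330016L19Rik was lowest. Gm14552, which shares 1467 bases with Gm2117 at 100% identity, had 57.0 and 97.0 CPM in knockdown libraries and 108 and 121 CPM in control libraries. Over all 11 genes the sum was 1568 and 1696 CPM in knockdown libraries and 1707 and 1714 CPM in control libraries, and its log2 fold change of −0.07 had an unadjusted p of 0.418 (edgeR). Xist, the RNA that coats the inactive X chromosome and no member, had 0.715 and 1.91 CPM in knockdown libraries and 7.94 and 4.77 CPM in control libraries. The part of X-chromosome dosage in the values of this family was not tested.

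The 28 members of the largest group linked by shared starts had levels from 10.3 to 1558 CPM. Their sum was 3670 and 4380 CPM in knockdown libraries and 3622 and 3725 CPM in control libraries, or 4025 ± 502 CPM in knockdown and 3673 ± 72.7 CPM in control (SD, n = 2 each). Knockdown replicate 1 lay between the control libraries and knockdown replicate 2 above both. The log2 fold change was above 0 in 22 and below 0 in 6, with a median of 0.17, against 133 above and 75 below with a median of 0.06 in the other 208 members. Without knockdown replicate 1 the median of the 28 was 0.28, and without knockdown replicate 2 it was 0.12. None was called (0.0% of all genes). At an unadjusted p under 0.05, 3 were higher, against 1.56% of all genes, and 0 lower, against 2.29%. In 14 both knockdown libraries lay above both controls, against 15.6% of all genes, and in 2 below, against 17.1%.

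Gm3143 had 514 and 554 CPM in knockdown libraries and 443 and 487 CPM in control libraries, a log2 fold change of 0.20 (SE 0.099, unadjusted p = 0.0940, edgeR), and its groups did not overlap. The 3 with an unadjusted p under 0.05 were Gm4224, C87198 and Gm42947. C87198 on chromosome 12 had 92.0 and 92.0 CPM in knockdown libraries and 75.1 and 71.2 CPM in control libraries, and Gm42947 on chromosome 3 had 65.2 and 79.2 CPM in knockdown libraries and 53.4 and 56.5 CPM in control libraries. Gm33819, with the lowest log2 fold change of the 28 (−0.32), had 28.7 and 37.7 CPM in knockdown libraries and 39.6 and 43.5 CPM in control libraries. Gm17751, the second most abundant of the group, overlapped between groups, with 590 and 700 CPM in knockdown libraries and 676 and 690 CPM in control libraries. Of the 28, 21 were lower in knockdown replicate 1 than in replicate 2, as were 154 of all 236 members.

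**Figure D4:**
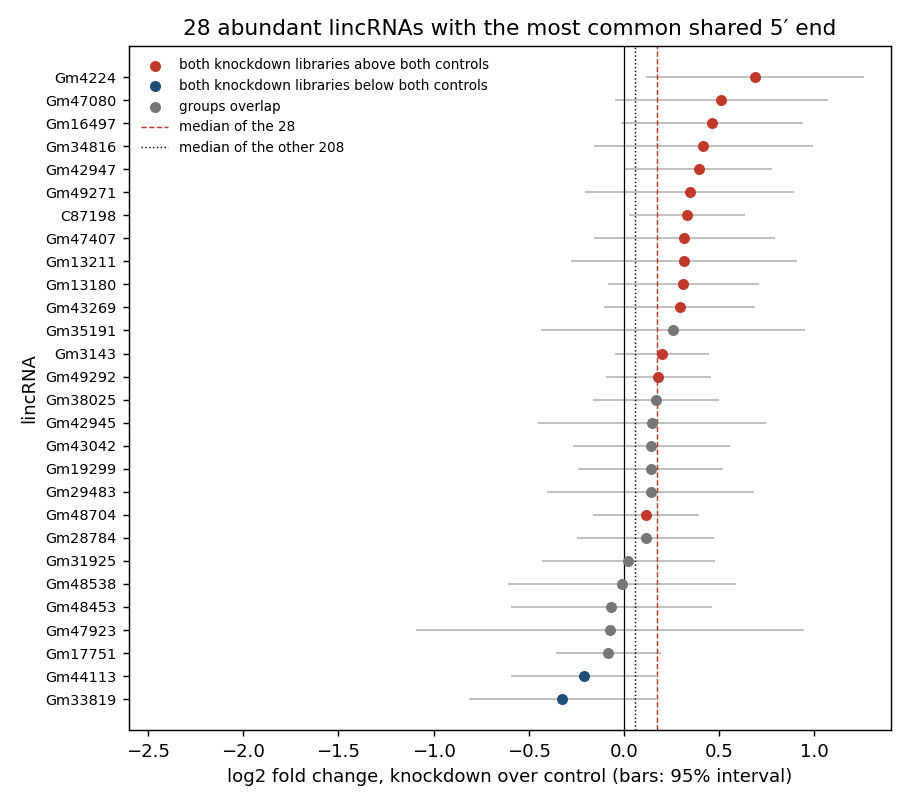
log2 fold change (knockdown over control) with 95% intervals from edgeR of the 28 abundant lincRNAs in the largest group linked by shared 5′ ends, in falling order. Colours give whether the 2 libraries of each group overlap. The median of the 28 is 0.17 (dashed) and that of the other 208 members 0.06 (dotted), and most intervals cross 0.

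Other groups with a shared start were smaller. A group of 3 (Gm27164, Gm43303 and Gm49371, on 3 chromosomes) summed to 288 and 295 CPM in knockdown libraries and 225 and 241 CPM in control libraries, and in all 3 both knockdown libraries lay above both controls, against 15.6% of all genes. A group of 13 on 5 chromosomes, which holds Drr1 and the near-identical sets on chromosomes 12 and 13, summed to 515 and 330 CPM in knockdown libraries and 355 and 384 CPM in control libraries. All 13 had a log2 fold change above 0, from 0.0016 to 0.30, yet the groups overlapped in every one of them, and 11 of 13 were higher in knockdown replicate 1 than in replicate 2. Gm47486, the most abundant of that group, had 75.3 and 44.4 CPM in knockdown libraries and 46.7 and 51.0 CPM in control libraries. Knockdown replicate 1 lay above both controls there and knockdown replicate 2 below both. The other group of 13, on 3 chromosomes, joins the 11 X-linked copies with A730082K24Rik and Gm16050. It summed to 2437 and 2786 CPM in knockdown libraries and 2582 and 2598 CPM in control libraries, with 5 members above 0, 8 below and a median log2 fold change of −0.24. The groups did not overlap in 2 of them on the higher side, against 15.6% of all genes, and in 6 on the lower side, against 17.1%. The remaining 4 groups had 2 or 3 members each: Gm20356, Gm44621 and Gm49164 lay above 0, Gm17575 and Platr30 below, and 1 member lay on each side in the pair AA545190 and Gm47913 and in the pair BC002059 and Gm6712.

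Knockdown libraries differed more from each other than control libraries did. The median absolute log2 difference between replicates was 0.24 in knockdown and 0.13 in control among the members, and 0.26 and 0.13 among protein-coding genes averaging 10 CPM or more. A difference of at least 2-fold between replicates was found for 7 members in knockdown and 0 in control. B020004C17Rik had 123 and 53.6 CPM in knockdown libraries and 106 and 124.8 CPM in control libraries, with knockdown replicate 1 between the controls and knockdown replicate 2 below both.

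The widest gap was that of Gm42418, a single-exon gene at chr17:39846958-39848788. It stood at 76.0 CPM in knockdown replicate 1, at 2.62 CPM in the other knockdown library, and at 2.88 and 3.90 CPM in control libraries, and its log2 fold change of 3.54 (SE 1.398, unadjusted p = 0.0480, edgeR) rests on the first library, which also brought its mean to the level of the rule. Without knockdown replicate 1 the log2 fold change was −0.37, and without knockdown replicate 2 it was 4.49, past the threshold at an adjusted p of 0.0266 (edgeR). Gm42418 lies on the opposite strand of CT010467.1, an annotated ribosomal RNA gene, which had 3044 and 2949 CPM in knockdown libraries and 3043 and 3392 CPM in control libraries. Without a known strand setting, reads of the 2 genes cannot be told apart. Gm26917, next to it at chr17:39843013-39846341, had 16.9 and 7.29 CPM in knockdown libraries and 12.6 and 13.2 CPM in control libraries.

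**Figure D5:**
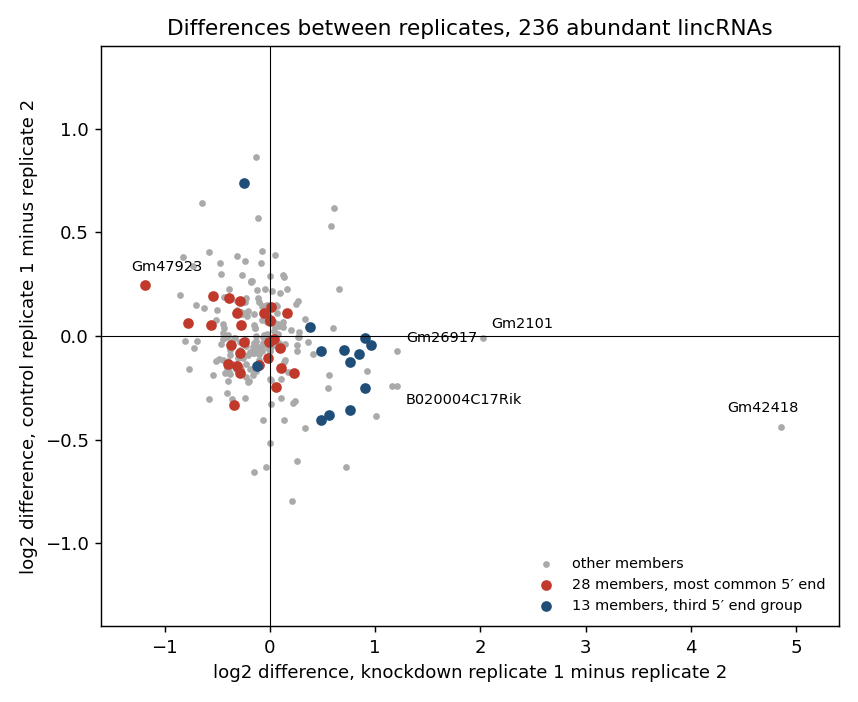
log2 difference between replicate 1 and replicate 2 of the knockdown group (horizontal) and of the control group (vertical) for the 236 abundant lincRNAs. Knockdown differences spread more widely, with Gm42418 at 4.85. Of the 28 members in the largest group linked by shared 5′ ends (red) 21 lie left of 0, as do 154 of all 236. Of the 13 in the third group (blue) 11 lie right of it.

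Few members have a name that goes with a known role, and none of these passed an adjusted p of 0.05 in edgeR. Pvt1, the host transcript of microRNAs beside Myc, had 49.8 and 54.4 CPM in knockdown libraries and 46.6 and 52.4 CPM in control libraries. 1700020I14Rik is listed as a synonym of Oip5os1 (Cyrano) in RefSeq, an RNA with a conserved site for miR-7; it had 41.8 and 26.5 CPM in knockdown libraries and 33.1 and 28.3 CPM in control libraries. Platr30, named as a pluripotency-associated transcript, had 179 and 210 CPM in knockdown libraries and 225 and 199 CPM in control libraries, and its 99.7% identical neighbour Gm17575 completed a sum of 360 and 435 CPM in knockdown libraries and 443 and 398 CPM in control libraries. In all 3 the groups overlapped.

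Of the members with a short symbol and no role known here, D6Ertd474e had 297 and 301 CPM in knockdown libraries and 296 and 308 CPM in control libraries, and AY512915 had 210 and 238 CPM in knockdown libraries and 243 and 202 CPM in control libraries. EU599041 had 23.5 and 19.6 CPM in knockdown libraries and 12.2 and 18.6 CPM in control libraries, and its groups did not overlap (log2 fold change 0.48, unadjusted p = 0.136, edgeR). Drr1 had 16.04 and 19.04 CPM in knockdown libraries and 19.8 and 11.9 CPM in control libraries, with overlapping groups. Members named as pseudogenes were 4. Tmem250-ps had 41.2 and 49.3 CPM in knockdown libraries and 38.9 and 36.0 CPM in control libraries. Obox4-ps35, named for a copy of the 2-cell homeobox gene Obox4, had 19.9 and 8.88 CPM in knockdown libraries and 14.8 and 17.5 CPM in control libraries. Zfp813-ps and Smkr-ps averaged 40.2 and 23.2 CPM in knockdown and 42.0 and 23.5 CPM in control.

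The only coding gene that starts within 10 kb of a member named for its level or its p-value was Gm9999, 7669 bases from C86187 and pointing away from it. It had 4.15 and 4.08 CPM in knockdown libraries and 3.36 and 3.30 CPM in control libraries, at an unadjusted p of 0.400 (edgeR). Of the 5 coding genes that point away from a member within 1 kb, Rfc5, a replication factor C subunit, had 83.9 and 76.3 CPM in knockdown libraries and 88.5 and 92.0 CPM in control libraries, with a log2 fold change of −0.17 beside −0.18 for its partner Gm15728. Cmc1, a mitochondrial protein gene, had 43.7 and 46.1 CPM in knockdown libraries and 39.2 and 40.3 CPM in control libraries, with a log2 fold change of 0.18 beside 0.16 for Gm17399. Cdc25c, a phosphatase of the cell cycle, had 21.74 and 13.82 CPM in knockdown libraries and 16.93 and 20.47 CPM in control libraries, with a log2 fold change of −0.07 beside 0.04 for 2010110K18Rik. Grpel1, a mitochondrial import co-chaperone gene, had 41.4 and 46.99 CPM in knockdown libraries and 35.6 and 47.3 CPM in control libraries, with a log2 fold change of 0.09 beside 0.09 for 2210406O10Rik. The signs were the same in 3 of these 4 pairs and opposite in that of Cdc25c, and none of the 4 coding genes passed the threshold. The fifth, 1600014C23Rik beside F630040K05Rik, was too low to be tested.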

How the data were processed

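Whole-number counts per gene were deposited by the authors as 1 table with a column per library, by their values not normalized. Per the submitters' processing notes, HISAT2 2.1.0 was used with Trim Galore 0.6.5, Picard 2.18.2 and CASAVA 1.8 on build mm10, with no role stated for any. The counting tool, annotation release, strand setting and treatment of duplicates and of reads that match several copies are nowhere stated in the labels or notes. Ensembl IDs without version were matched to GENCODE M21 (GRCm38): 53620 of 53715 rows matched, 51464 with the same version.

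The main test was edgeR 4.0.16 under R 4.3.3 (filterByExpr with a minimum of 10 counts, scaling by TMM (trimmed mean of M-values), quasi-likelihood F-test, two-sided, group as the only term, Benjamini-Hochberg over 25565 genes, threshold 0.05). The SE is the fold change over the square root of F. Alternatives were DESeq2 1.42.0, limma-voom 3.58.1, other scalings and filters, a replicate term and leaving out each library. The test was checked on simulated data. The closest pair of libraries, the controls, differed by a chi-square per degree of freedom of 30.9, so all 4 were kept as separate samples.

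Transcripts were compared with blastn 2.17.0. Promoter windows are from RefSeq (GRCm38.p6). Members named are the 12 highest by CPM, the 6 with the smallest unadjusted p in each direction, those whose symbol is no gene-model or clone number, the 6 highest per kb and the 4 on each side of the level. Gm42418, Gm26917, B020004C17Rik, 1700020I14Rik and members named for their copies, shared starts or neighbours were chosen after their values were seen. The members and lists were chosen with earlier results of these data known. No molecular identifiers are named for the pre-amplified cDNA, so counting precision at these depths may be overstated.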

Additional observations from a re-analysis of the deposited data

How the results depend on the processing

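With 2 libraries a group and no called member in edgeR, direction and the number of calls were compared across settings. The median of the abundant lincRNAs stayed above 0 in all settings tried, from 0.03 to 0.11, and the number above 0 ranged from 135 to 166. Taken singly, 109 of the 236 members kept their direction in every fit with a library left out. The sum of the 4 identical X-linked transcripts stayed below 0, from −0.41 to −0.32. DESeq2 called 18 genes higher and 31 lower, among the members 1 higher (Gm2117, log2 fold change 2.08). Leaving out 1 library gave 0 to 2 genes higher and 0 to 1 lower, and among the members 0 to 1 higher and 0 to 1 lower. The median of the 28 lincRNAs in the largest group linked by shared starts ranged from 0.12 to 0.28 over the left-out libraries. The log2 ratio of the summed level of all members ranged from −0.02 (without knockdown replicate 2) to 0.12. The labels do not say whether replicate numbers pair the libraries. Deviations of same-numbered libraries correlated at −0.0895, which cannot settle pairing with so few libraries. A replicate block gave 0 calls, a median of 0.06, 0.17 in the group of 28 and −0.37 in the sum of 4. A level of 5 CPM gave 393 members.

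Of 429 values of named members under alternatives, 396 kept direction and side of the threshold, 30 turned and 3 passed it. Without TMM, AA545190 was −0.023 and AY512915 −0.033; with the filter of 10 CPM they were −0.0068 and −0.016. With DESeq2 size factors C86187 was 0.0043, and with DESeq2 itself 0.0097, where D6Ertd474e was 0.00044. All-gene medians moved with these settings, from −0.0025 to −0.041 without TMM, 0.0052 with DESeq2 size factors and 0.0024 with DESeq2 (genes of at least 10 CPM: from 0.026 to 0.0021 under that filter). Leaving out libraries in turn gave ranges that cross 0 for C86187 (−0.029 to 0.027), Gm38025 (−0.02 to 0.34), AA545190 (−0.027 to 0.061), Gm17751 (−0.21 to 0.037), E330016L19Rik (−0.36 to 0.031), 4933427D06Rik (−0.195 to 0.31), Gm37724 (−0.084 to 0.63), D6Ertd474e (−0.044 to 0.014), AY512915 (−0.12 to 0.14), Pvt1 (−0.010 to 0.16), Zfp813-ps (−0.21 to 0.076), Smkr-ps (−0.13 to 0.093), Drr1 (−0.17 to 0.56), Obox4-ps35 (−0.86 to 0.31), Gm11381 (−0.11 to 0.038), 5730403I07Rik (−0.29 to 0.010), 2610037D02Rik (−0.30 to 0.11), Gm13715 (−0.14 to 0.071) and Gm42418 (−0.37 to 4.49). A lone library left in a group is assumed to vary like the other group.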

Other observations

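Other classes of noncoding gene with a mean of at least 10 CPM were fewer. There were 73 antisense genes, with summed levels of 3452 and 3522 CPM in knockdown libraries and 3261 and 3299 CPM in control libraries, and 57 genes of the class processed transcript, with 2769 and 2777 CPM in knockdown libraries and 2607 and 2656 CPM in control libraries. The 30 genes of the class TEC, GENCODE's tag for loci that await experiments, summed to 7135 and 9889 CPM in knockdown libraries and 7251 and 7398 CPM in control libraries. Median log2 fold changes were 0.09 in the antisense genes, 0.05 in the processed transcripts and 0.20 in the TEC genes.

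Of 61 other long noncoding RNAs with known names that were tested, 34 lay above 0 and 27 below on the log2 fold scale (median 0.04). None was called in edgeR (0.0% of all genes), and at an unadjusted p under 0.05 there was 1 higher, against 1.56% of all genes, and 2 lower, against 2.29%. The 1 was Airn, an imprinted antisense RNA, with 4.74 and 7.53 CPM in knockdown libraries and 1.93 and 2.59 CPM in control libraries. The 2 were Xist and Peg13, the second with 0.155 and 0.0852 CPM in knockdown libraries and 1.74 and 0.722 CPM in control libraries. Malat1, a nuclear speckle RNA, had 158.9 and 125.2 CPM in knockdown libraries and 94.985 and 117.7 CPM in control libraries, and Kcnq1ot1, an imprinted antisense RNA, had 23.97 and 22.36 CPM in knockdown libraries and 16.99 and 16.53 CPM in control libraries. The groups did not overlap in Malat1 or in Kcnq1ot1. Tug1 had 304 and 250 CPM in knockdown libraries and 287 and 340 CPM in control libraries, with overlapping groups.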
